A study of Mus musculus with 17 samples.

Results

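Erythroid blasts of TgSpi1FA-/- mice were compared at the leukaemic and the preleukaemic stage. The members were chosen by the sample titles and the cell type label: leukemic_26, leukemic_28 and leukemic_39 were leukaemic and preleukemic_77, preleukemic_224 and preleukemic_40 preleukaemic (the labels' own names, 1 mouse each), which makes 6 of the 17 libraries of the series. All 6 mice carried a constitutively expressed Spi1 transgene and lacked Fanca, on a DBA2JxFVB/N cross, and their blasts were kept in culture with erythropoietin (EPO) and diluted before RNA extraction. The study calls leukaemic those blasts that can grow without EPO and form tumours. It reports a Kit mutation in the blasts of leukemic_26 and an Nras mutation in those of leukemic_28 and leukemic_39, so the leukaemic group is mixed in this respect. The ages of the mice were not given in the labels. Each library came from 1 mouse, was read from a stranded poly(A) preparation and was not repeated, so the p-values measure the spread between mice and their cultured blasts. Another 4 libraries, from TgSpi1FA+/+ preleukaemic mice with the same transgene and an intact Fanca gene (preleukemic_445, preleukemic_479, preleukemic_451 and preleukemic_138), shared the estimate of the spread and serve here as a second reference level. In the column names and the source field, the 3 TgSpi1FA-/- preleukaemic mice are called leukaemic, whereas the titles and the cell type call them preleukaemic, and their stage here rests on the latter. Values of single mice are given in the order leukemic_26, leukemic_28 and leukemic_39 for leukaemic cells and preleukemic_77, preleukemic_224 and preleukemic_40 for preleukaemic cells.

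Total counts were 36036450 to 38217654 in the leukaemic and 29964576 to 34653758 in the TgSpi1FA-/- preleukaemic libraries. Between preleukemic_445 and preleukemic_479 the counts hardly differed (chi-square over its degrees of freedom 8.53, against 114 to 372 for the other pairs of mice of a group), so the TgSpi1FA+/+ group may hold fewer than 4 independent libraries. The number of genes called in the comparison below, 1782, was 1209 without preleukemic_445 and 1235 without preleukemic_479. Fanca had 0.615 to 2.30 CPM (counts per 1000000, with TMM-scaled library sizes) in the 6 TgSpi1FA-/- libraries and a mean of 53.1 ± 28.5 CPM (SD, n = 4) in TgSpi1FA+/+ cells. Spi1, the gene of the transgene, had 630, 220 and 3.88 CPM in the leukaemic mice and 670 to 781 CPM in the preleukaemic mice. Library leukemic_39 thus stood apart in the gene that defines the model, and counts of called genes are also given without it for the lists described below. The difference in Spi1 did not pass the test (log2 fold change −1.32, standard error 1.10, edgeR quasi-likelihood test, adjusted p = 0.443). The erythroid label was checked against markers. Gata1, the master regulator of red cell genes, had 344 to 389 CPM in leukaemic and 378 to 575 CPM in preleukaemic cells. Lyz2, a macrophage gene, had at most 0.230 CPM, and Cpa3, a mast cell protease, at most 0.932 CPM in these 6 libraries.

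Red cell precursors are built under a small set of transcription factors, in which GATA1 with TAL1, LMO2 and the zinc finger factor KLF1 turns on globin, haem and membrane genes, while MYB and GATA2 belong to earlier progenitors. GATA factors bind DNA at GATA motifs and KLF1 at CACCC boxes, often close to each other. EPO keeps the precursors alive through its receptor, JAK2 and STAT5, and KIT and RAS proteins signal next to it. SPI1 opposes GATA1, and its overexpression holds the cells at the proliferating stage.

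The promoters of 4 repressed red cell genes are shown here because they hold both motifs. They are the 250 bases before the RefSeq transcription start (GRCm38.p6), written in the direction of the gene, with GATAA and CACCC on either strand in capitals (TTATC and GGGTG are the reverse complements). Klf1 is at chr8:84901732-84901981 (plus strand), Zbtb7a, a repressor of the LRF family in red cells, at chr10:81136021-81136270 (plus strand), Ermap, an erythroid membrane protein of the Scianna blood group, at chr4:119189996-119190245 (minus strand) and Hbb-bt, an adult beta globin, at chr7:103813924-103814173 (minus strand).
Klf1: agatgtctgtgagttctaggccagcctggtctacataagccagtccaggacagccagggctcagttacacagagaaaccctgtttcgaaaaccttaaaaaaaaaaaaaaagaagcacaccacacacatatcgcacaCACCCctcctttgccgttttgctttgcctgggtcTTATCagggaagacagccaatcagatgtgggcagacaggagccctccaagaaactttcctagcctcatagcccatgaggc
Zbtb7a: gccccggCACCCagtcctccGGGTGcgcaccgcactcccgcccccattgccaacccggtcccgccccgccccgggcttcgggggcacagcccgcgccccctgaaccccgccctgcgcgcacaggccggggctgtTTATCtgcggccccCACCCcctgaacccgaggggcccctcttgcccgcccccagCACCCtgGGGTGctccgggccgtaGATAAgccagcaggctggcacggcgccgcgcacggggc
Ermap: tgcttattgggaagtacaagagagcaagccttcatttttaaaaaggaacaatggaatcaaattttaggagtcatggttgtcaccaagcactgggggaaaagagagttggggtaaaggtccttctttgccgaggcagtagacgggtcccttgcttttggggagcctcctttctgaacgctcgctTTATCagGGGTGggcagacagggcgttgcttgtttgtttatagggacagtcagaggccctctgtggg
Hbb-bt: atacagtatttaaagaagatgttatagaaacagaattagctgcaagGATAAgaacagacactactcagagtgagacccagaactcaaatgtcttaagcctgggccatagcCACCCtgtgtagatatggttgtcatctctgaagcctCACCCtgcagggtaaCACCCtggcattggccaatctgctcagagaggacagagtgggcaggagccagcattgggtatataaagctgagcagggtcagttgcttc
Of the 17 repressed genes of the red cell lists (transcription factors, globins, iron, membrane), 13 had such a window, and all 13 held CACCC while 6 held GATAA (Ermap, Gfi1b, Hbb-bt, Klf1, Rhd and Zbtb7a). Among all 9634 tested genes with a window, 56.8% held CACCC and 15.2% held GATAA, and among the 80 tested members of the red cell lists with a window these shares were 68.8% and 35.0%. Of all 683 repressed genes with a window, 56.5% held CACCC and 13.3% held GATAA. A match says that the letters are present in the window and nothing about binding.

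Between leukaemic and preleukaemic cells, 1782 of 13393 genes tested were called (adjusted p below 0.05 and at least 1.5-fold), with 913 increased (6.82% of the genes tested) and 869 repressed (6.49%). The counts of called genes in the lists below are to be read beside these shares. The increased genes had lower preleukaemic levels and larger fold changes than the repressed genes. The median log2 fold change was 3.39 among the increased and −1.12 among the repressed genes. In preleukaemic cells, 474 of the increased genes (51.9%) had a mean under 1 CPM and 229 had no more than 3 counts in any library, 89 of them no count at all. In leukaemic cells, only 87 of the repressed genes (10%) had a mean under 1 CPM and 26 had no more than 3 counts in any library. A preleukaemic mean of at least 100 CPM was seen for 71 increased genes and 355 repressed genes. The filter on low counts lets a gene pass through the group in which it is high. A gene near 0 in one group therefore had to differ in order to be tested. A preleukaemic mean under 1 CPM was seen for 2872 of the genes tested, and 474 of these were increased. The share of 6.82% is thus too low a yardstick for lists with many such genes. No list was compared with genes of like level.

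Calls depended on single mice. With 1 of the 6 mice left out, between 414 (without leukemic_28) and 2319 genes (without leukemic_26) were called, and 418 without preleukemic_224, 711 without leukemic_39, 822 without preleukemic_77 and 833 without preleukemic_40. A core of 291 genes was called in the fit of all libraries and in each of these 6 fits, 139 increased (1.04%) and 152 repressed (1.13%), and genes of this core are named as such below. All 3 leukaemic libraries were above all 7 preleukaemic libraries of both genotypes for 674 of the increased genes (73.8%, against 9.8% of the genes tested), and below all 7 for 722 of the repressed genes (83.1%, against 9.85%). The groups of 3 leukaemic and 3 TgSpi1FA-/- preleukaemic libraries were apart for 19.4% of the genes tested (leukaemic higher) and 19.3% (leukaemic lower). Among them were 896 of 913 called as increased and 863 of 869 called as repressed. For a called gene below, groups apart therefore add little to the call.

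**Figure D1:**
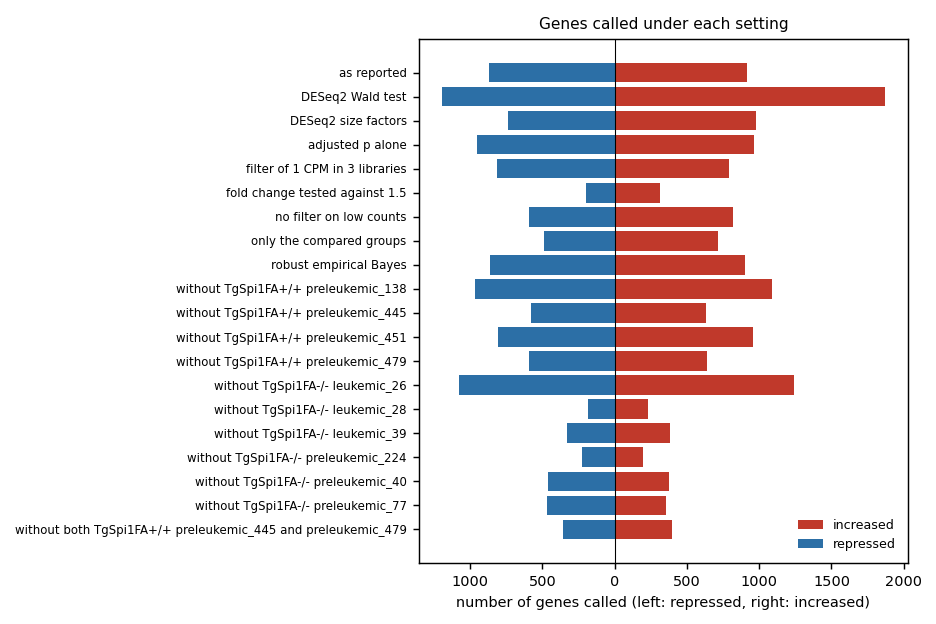
Number of genes called as increased (right) or repressed (left) under each setting, with the reported fit at the top and fits without single mice below. Counts fell to 194 increased genes without preleukemic_224 and 183 repressed genes without leukemic_28, and rose to 1873 increased genes with DESeq2's Wald test.

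Among increased core genes with no more than 3 counts in any TgSpi1FA-/- preleukaemic library, the smallest adjusted p was that of Igf2bp1, which encodes an mRNA-binding protein of fetal tissues and many tumours (ENSMUSG00000013415, chr11:95957163-96005940). Igf2bp1 had 113, 282 and 350 CPM in leukaemic cells and at most 1 count in each preleukaemic library. All 3 leukaemic mice were high and no TgSpi1FA+/+ library exceeded the floor of 3 counts, and leukaemic cells had at least a 2632-fold higher level (edgeR quasi-likelihood test, adjusted p = 0.00015, and at most 0.00269 with 1 mouse left out). Igf2bp1 passed the filter on low counts only through the leukaemic libraries, so its direction was fixed by the filter. Bex1, an X-linked gene of neural and tumour cells, had 14.4, 62.8 and 45.6 CPM in leukaemic cells and no count in TgSpi1FA-/- preleukaemic cells, at least 434-fold higher. Itm2a, a membrane protein gene, Tspan6, a tetraspanin gene, and Rassf2, a gene of the RAS association domain family, likewise had no count in the 3 preleukaemic libraries and were at least 268-fold, 200-fold and 104-fold higher. For Bex1, Itm2a, Tspan6 and Rassf2, leukemic_26 had the lowest leukaemic level. With no count in the preleukaemic libraries, groups apart follow from any count in each leukaemic library and are no separate result. Podxl, a sialomucin of progenitor and embryonic cells, was among the most abundant increased genes, at 1059, 1049 and 1184 CPM in leukaemic against 497, 328 and 233 CPM in preleukaemic cells (log2 fold change 1.64, standard error 0.26, edgeR quasi-likelihood test, adjusted p = 0.00974). Podxl was a core gene.

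Among the core genes that were lost, Slco3a1, an organic anion transporter gene, had 29.6, 46.0 and 58.5 CPM in preleukaemic cells and at most 2 counts in the leukaemic libraries, at least 571-fold lower. Mgmt, which removes alkyl groups from guanine in DNA, had 11.5, 8.33 and 12.7 CPM in these preleukaemic mice and no count in the 3 leukaemic libraries. Fcho1, a gene of clathrin-mediated endocytosis, had 158, 250 and 118 CPM in preleukaemic and 2.77, 1.20 and 3.98 CPM in leukaemic cells. In each case the groups were far apart, and TgSpi1FA+/+ cells had 16.2, 12.5 and 59.8 CPM on average for Slco3a1, Mgmt and Fcho1. The TgSpi1FA+/+ mice ranged from 0.256 to 27.3 CPM for Slco3a1, 4.86 to 21.7 CPM for Mgmt and 15.45 to 139 CPM for Fcho1. The lowest level of each was in preleukemic_138, so low Slco3a1 was also seen in a preleukaemic mouse.

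**Figure D2:**
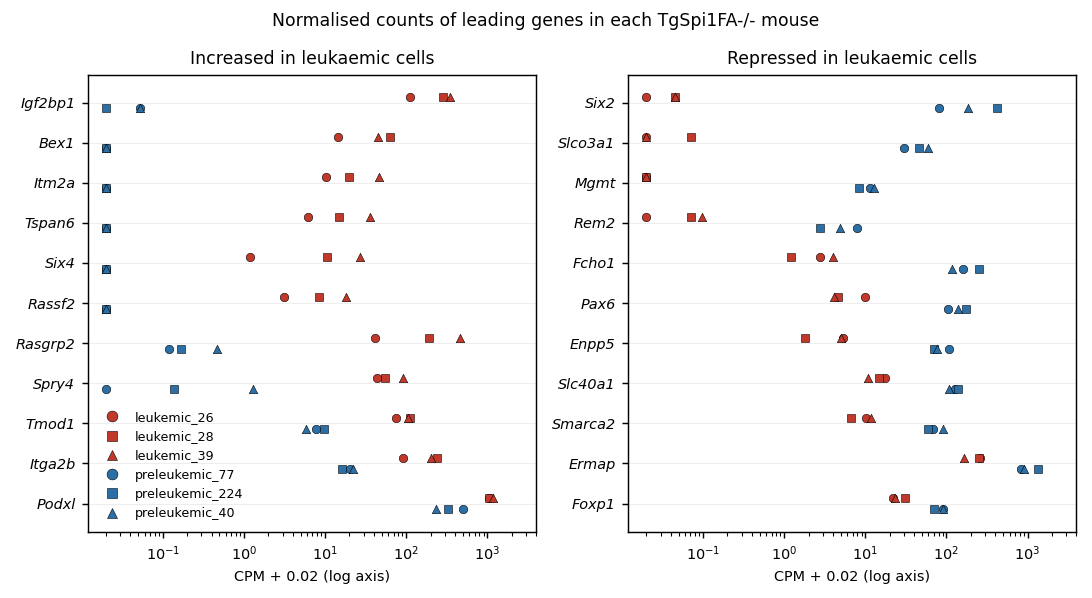
Normalised counts (CPM plus 0.02, log axis) of genes increased (left) and repressed (right) in leukaemic cells, 1 point per TgSpi1FA-/- mouse. The leukaemic points (red) and the preleukaemic points (blue) do not overlap for any of the genes shown, and Igf2bp1 has 113 to 350 CPM in leukaemic cells.

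Of 26 red cell transcription factors tested, 8 were repressed and 0 increased (Bcl11a, Zbtb7a, Myb, Klf3, Klf1, Ikzf1, Lmo2 and Gfi1b), beside 6.49% repressed over all genes tested. The median log2 fold change of the list was −0.48, against −0.00 over all genes tested. Klf1, the activator of adult beta globin (ENSMUSG00000054191, chr8:84901928-84905291), had 158, 154 and 99.2 CPM in leukaemic and 349, 351 and 292 CPM in preleukaemic cells. Each leukaemic library was below each preleukaemic one, and the log2 fold change was −1.27 (standard error 0.18, edgeR quasi-likelihood test, adjusted p = 0.00626). Zbtb7a had 59.6, 71.8 and 46.3 CPM in leukaemic and 155, 173 and 175 CPM in preleukaemic cells, again without overlap (−1.50, standard error 0.19, adjusted p = 0.00535). Klf1, Zbtb7a, Ikzf1, the founding Ikaros factor, and Klf3, a KLF repressor, were core genes, with log2 fold changes of −1.20 for Ikzf1 and −1.38 for Klf3. Myb had 358, 197 and 176 CPM in leukaemic and 591, 682 and 642 CPM in preleukaemic cells. Bcl11a, which represses embryonic globins, had 175, 70.6 and 45.7 CPM against 283, 352 and 261 CPM. For both the groups did not overlap, while Bcl11a was lowest in leukemic_39 and lost the call without leukemic_28 (adjusted p = 0.150). Myb also lost it without leukemic_28 (adjusted p = 0.0539), Lmo2, the bridging factor of the GATA1 complex, in 5 of the 6 fits (at most 0.0860, without leukemic_39) and Gfi1b, a repressor of red cell and platelet precursors, without preleukemic_224 (0.0503). Between 5 (without preleukemic_224) and 8 of these factors were called with 1 mouse left out, and 6 without leukemic_39.

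Other red cell and progenitor factors did not pass the test. Gata1 changed by −0.33 on the log2 scale (standard error 0.16, edgeR quasi-likelihood test, adjusted p = 0.170) and Tal1 by −0.47 (standard error 0.30, adjusted p = 0.309), and Runx1, a stem and progenitor factor, by −0.62 (standard error 0.36, adjusted p = 0.264). Gata2 had 89.4, 464 and 690 CPM in leukaemic and 128, 3.77 and 139 CPM in preleukaemic cells. The groups overlapped through leukemic_26 (edgeR quasi-likelihood test, adjusted p = 0.359), and preleukemic_224 was the only one of these 6 libraries under 10 CPM. In TgSpi1FA+/+ cells Gata2 ranged from 6.41 CPM (preleukemic_451) to 365 CPM (preleukemic_138). Epor, the EPO receptor, had 60.9 to 121 CPM in leukaemic and 135 to 160 CPM in preleukaemic cells, without overlap but with an adjusted p of 0.0753 (log2 fold change −0.66, standard error 0.22).

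**Figure D3:**
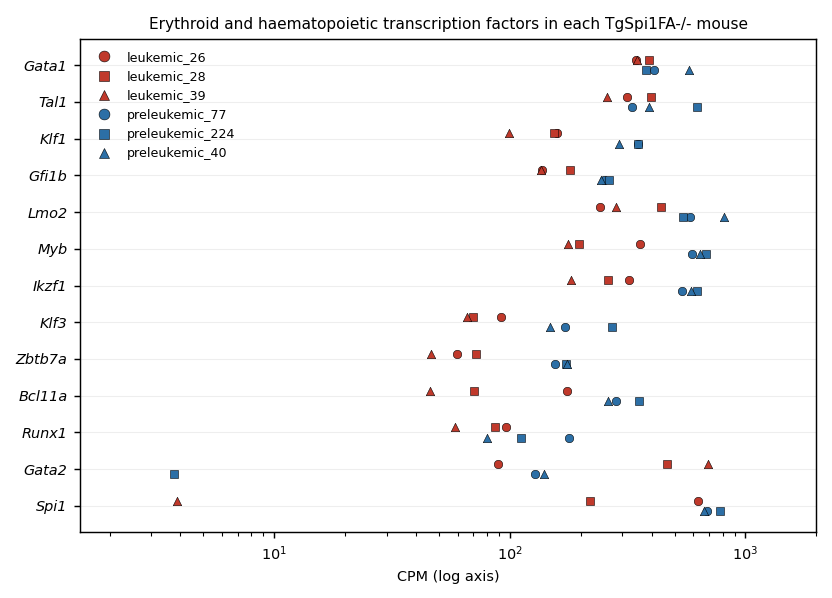
Normalised counts (CPM, log axis) of red cell and haematopoietic transcription factors, 1 point per TgSpi1FA-/- mouse. Klf1 and Zbtb7a have no overlap between leukaemic (red) and preleukaemic (blue) mice, Gata1 and Tal1 do overlap, and Spi1 is at 3.88 CPM in leukaemic mouse leukemic_39.

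Of 8 globin genes tested, 1 was repressed (Hbb-bt) and 1 increased (Hbb-bh1), also without leukemic_39. Hbb-bt had 7.62, 2.94 and 0.101 CPM in leukaemic and 388, 168 and 97.7 CPM in preleukaemic cells. The groups did not overlap (log2 fold change −5.94, standard error 1.38, edgeR quasi-likelihood test, adjusted p = 0.0265, and 0.0950 without leukemic_28). Hbb-bs, the neighbouring adult gene, had 991, 222 and 0.837 CPM against 977, 1513 and 1568 CPM, so that leukemic_26 lay within the preleukaemic range and the difference did not pass the test (adjusted p = 0.424). The embryonic gene Hbb-bh1 had 16.1, 1836 and 938 CPM in leukaemic cells and at most 3 counts in each preleukaemic library, at least 9849-fold higher, and the call was lost without preleukemic_224 (adjusted p = 0.0728), leukemic_28, preleukemic_77 or preleukemic_40. Hbb-y and Hba-x, the other embryonic genes, did not pass the test. Of the TgSpi1FA-/- mice, leukemic_28 had the highest levels, at 37.6 and 118 CPM. In TgSpi1FA+/+ cells Hbb-y had 92.2 CPM in preleukemic_138, above leukemic_28, and 0.224 to 1.40 CPM in the other mice. Hbb-bh1 had 9.77 CPM in preleukemic_138 and at most 0.686 CPM in the other TgSpi1FA+/+ mice. Hba-a1, an adult alpha globin with a near-identical copy that can share its reads, had 112 to 322 CPM in leukaemic and 180 to 460 CPM in preleukaemic cells. The sum over the globin list was 1061 to 2541 CPM in leukaemic and 1827 to 1904 CPM in preleukaemic cells, so the totals overlapped. In such cultures, fewer cells of a kind and less RNA per cell cannot be told apart.

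Iron and membrane genes of red cells fell in part. Slc40a1, the iron exporter ferroportin (ENSMUSG00000025993, chr1:45908068-45926523), had 17.7, 14.9 and 10.8 CPM in leukaemic and 127, 139 and 107 CPM in preleukaemic cells. Every leukaemic mouse was far below the lowest preleukaemic mouse, and among the repressed genes Slc40a1 had the smallest adjusted p (0.000302, log2 fold change −3.10, standard error 0.20). Tfr2, the second transferrin receptor, and Aco1, the iron-sensing aconitase, were also repressed (−2.19 and −0.80), but lost the call without leukemic_28 (adjusted p = 0.0579 and 0.0963). The main transferrin receptor Tfrc had 1215 to 2195 CPM in leukaemic and 1623 to 2220 CPM in preleukaemic cells. Of 17 iron genes tested, 3 were repressed and 0 increased, or 2 and 0 without leukemic_39. Of 29 membrane and blood group genes tested, 5 were repressed (Ermap, Cldn13, Rhd, Stom and Ank1) and 1 was increased, or 4 and 2 without leukemic_39. Ermap had 256, 252 and 166 CPM in leukaemic and 827, 1337 and 900 CPM in preleukaemic cells (log2 fold change −2.19, standard error 0.22, edgeR quasi-likelihood test, adjusted p = 0.00241). Cldn13, an erythroblast claudin gene, and Stom, the stomatin gene, were core genes like Ermap (−2.01 and −1.62), whereas Rhd lost the call without leukemic_28 or leukemic_39, and Ank1, the ankyrin gene, without preleukemic_224 or preleukemic_40. The increased gene was Tmod1, which caps actin filaments of the membrane skeleton, with 75.6, 112 and 105 CPM against 7.81, 9.74 and 5.89 CPM (log2 fold change 3.64, standard error 0.42, adjusted p = 0.00396). Tmod1 was a core gene without overlap between the groups. Haem synthesis did not move as a list: 0 of 21 genes tested were called in either direction, with a median log2 fold change of 0.02. Alas2, its first enzyme in red cells, had 119, 63.0 and 12.8 CPM against 91.1, 73.2 and 174 CPM, and the groups overlapped.

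Among all transcription factors, 58 of 709 tested were increased and 58 repressed (median log2 fold change −0.09), with 12 to 75 increased and 19 to 59 repressed when 1 mouse was left out (fewest increased without leukemic_28, fewest repressed without preleukemic_224, and 20 and 28 without leukemic_39). Over all genes tested, 6.82% were increased and 6.49% repressed, so these shares were close to the background. Homeobox factors outside the HOX clusters moved both ways, 8 increased and 8 repressed of 42, or 2 and 5 without leukemic_28, 2 and 4 without preleukemic_224 and 4 and 4 without leukemic_39. Pax6, an eye and brain factor (ENSMUSG00000027168, chr2:105668900-105697364), had 9.76, 4.55 and 4.08 CPM in leukaemic and 105, 174 and 139 CPM in preleukaemic cells (log2 fold change −4.51, standard error 0.42, edgeR quasi-likelihood test, adjusted p = 0.00195). Six2, a kidney progenitor factor, had 80.4, 425 and 185 CPM in preleukaemic cells and at most 1 count in the leukaemic libraries, and its relative Six4 had 1.18, 10.6 and 26.6 CPM in leukaemic cells and no count in preleukaemic ones. All 3 were core genes, and in none did the groups overlap, which for Six4 follows from its having no preleukaemic count. Cux1 was repressed (−1.63, a core gene) and Cux2 was at least 143-fold higher, with 0.356 CPM in leukemic_26, 11.9 in leukemic_28 and 28.1 in leukemic_39. Cux2 lost the call without leukemic_28 or preleukemic_224, with adjusted p of at most 0.0621.

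Foxp1, a forkhead repressor, had 21.8, 30.9 and 23 CPM in leukaemic and 90.6, 70.4 and 90.2 CPM in preleukaemic cells (log2 fold change −1.73, standard error 0.17, edgeR quasi-likelihood test, adjusted p = 0.00195). The 3 leukaemic mice were close to each other and below all preleukaemic mice. Nuclear receptors had 7 increased and 5 repressed members of 25, but 1 and 1 without leukemic_28 or preleukemic_224 and 2 and 1 without leukemic_39. Nr6a1, an orphan receptor of germ and embryonic cells, had 68.9, 60.06 and 60.04 CPM in leukaemic and 7.55, 6.43 and 9.61 CPM in preleukaemic cells (log2 fold change 3.002, standard error 0.40, adjusted p = 0.00556), again with little spread inside the groups. The retinoic acid receptor Rara had 24.3 to 25.4 CPM in leukaemic and 2.31 to 9.61 CPM in preleukaemic cells, and lost the call without preleukemic_224 (adjusted p = 0.110) and in 4 of the other fits. Pparg, the fat cell receptor, was repressed with a log2 fold change of −2.92, and not called without leukemic_28 (adjusted p = 0.134) nor in 4 other fits. Nfil3, a basic leucine zipper repressor, was at least 37.6-fold higher and a core gene. KLF and SP factors had 0 increased and 3 repressed members of 17, or 0 and 3 without leukemic_39 and 0 and 2 without leukemic_28 or preleukemic_224.

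In the RAS-MAPK list, 14 of 45 genes tested were increased and 2 repressed, with a median log2 fold change of 0.71. Without preleukemic_224 there were 4 increased genes, without leukemic_28 there were 6 and without leukemic_39 there were 7. In this cascade, exchange factors load RAS with GTP, RAF, MEK and ERK kinases carry the signal, and Sprouty, Spred and dual-specificity phosphatase proteins are made in response and damp it. Rasgrp2, an exchange factor of platelets (ENSMUSG00000032946, chr19:6399340-6415216), had 41.4, 190 and 456 CPM in leukaemic and 0.0985, 0.146 and 0.453 CPM in preleukaemic cells. The lowest leukaemic mouse was far above the highest preleukaemic one, with a log2 difference of 9.93 (standard error 1.42, edgeR quasi-likelihood test, adjusted p = 0.00668), while TgSpi1FA+/+ cells had 17.8 CPM on average. Spry4, a Sprouty inhibitor, had 43.3, 55.3 and 92.1 CPM in leukaemic and 0, 0.117 and 1.26 CPM in preleukaemic cells (7.11, standard error 1.26, adjusted p = 0.0127). Dusp4, a phosphatase of ERK, had 0.603, 44.0 and 137 CPM against 0, 0.117 and 0.841 CPM. Dusp4 in leukemic_26 was below the level in preleukemic_40, so these groups overlapped, and the call was lost without preleukemic_224 (adjusted p = 0.109) and 4 other mice.

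Rasgrp2, Spry4 and Dusp7, another phosphatase (1.17), were core genes. Smaller rises were seen for Spred1 (1.23) and the kinase gene Map2k1 (0.69), neither called without preleukemic_224 (adjusted p = 0.0995 and 0.0957). Mras and Rasal1 were 20.5-fold and 15.8-fold higher at least, both from no count in preleukaemic cells and under 5 CPM in leukaemic ones, and lost the call without preleukemic_224. Araf fell by 0.60 on the log2 scale and was not called without leukemic_28 (adjusted p = 0.0963). Nras, on chromosome 3, was also on this list, and the region around it is described with the chromosome windows below.

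In the EPO, KIT and JAK-STAT list, 5 of 31 genes were increased and 5 repressed. The repressed ones were signalling proteins: the kinases Tyk2 (−2.02) and Jak1 (−1.34), the transcription factors Stat2 (−1.39) and Stat5a (−1.32), and Socs4. Stat5a had 55.9, 90.1 and 44.4 CPM in leukaemic and 188, 154 and 135 CPM in preleukaemic cells, without overlap (edgeR quasi-likelihood test, adjusted p = 0.0165, and 0.0539 without preleukemic_224). Jak2, the kinase of the EPO receptor, had at most 160 CPM in leukaemic and 162 to 188 CPM in preleukaemic cells, and did not pass the test (log2 fold change −0.16, standard error 0.13, adjusted p = 0.431). The increased ones were Jak3 (2.16), Socs5 (1.68), Socs6 (1.31), Sh2b3, which encodes the inhibitor LNK (1.27), and the kinase gene Pim3 (0.72), each with groups apart. Of these 10 genes only Stat2 was a core gene, and without preleukemic_224 the list had 0 increased and 1 repressed member, without leukemic_28 it had 0 and 2, and without leukemic_39 it had 1 and 3.

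Of 36 PI3K and AKT genes tested, 5 were repressed (Pik3cg, Phlpp2, Akt1, Pik3r1 and Pik3r2) and 2 increased, with a median log2 fold change of −0.46. Akt1 had 239, 193 and 152 CPM against 319, 341 and 369 CPM (log2 fold change −0.82, standard error 0.19, edgeR quasi-likelihood test, adjusted p = 0.0257), without overlap. None of the 5 was called without leukemic_28, preleukemic_224 or leukemic_39. Receptor tyrosine kinases and their ligands had 7 increased and 0 repressed members of 25 (median 1.98), or 2 without leukemic_28, 3 without preleukemic_224 and 4 without leukemic_39. Kdr, the VEGF receptor, had 7.32, 26.7 and 34.6 CPM against 0.427, 0.643 and 0.323 CPM (5.61, standard error 0.82, adjusted p = 0.00770), and Axl had no count in preleukaemic cells and was at least 25.4-fold higher. Both were core genes. Its ligand gene Vegfa had 87.6, 66.8 and 56.1 CPM against 38.1, 18 and 29.7 CPM (1.29), and was not called without preleukemic_224, leukemic_28 or preleukemic_40 (adjusted p at most 0.0745).

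TGF-beta and BMP genes had 5 increased and 0 repressed members of 34 (median 0.78), or 1 without preleukemic_224 and 2 without leukemic_28 or leukemic_39. Smad4, the common effector of both pathways, had 87.7, 112 and 112 CPM in leukaemic and 28.2, 47.1 and 50.4 CPM in preleukaemic cells (log2 fold change 1.31, standard error 0.24, edgeR quasi-likelihood test, adjusted p = 0.0138) and was a core gene. The BMP receptor gene Bmpr1a had 70.6, 24.2 and 10.3 CPM against at most 3 counts, and Tgfbr3, a co-receptor, had 78.1, 37.7 and 37.5 CPM against 0.427, 0 and 2.52 CPM. For both the groups were apart, but TgSpi1FA+/+ cells had means of 9.72 and 45.4 CPM, and Tgfbr3 was called in 0 of the 6 fits with a mouse left out (adjusted p at most 0.128, without preleukemic_77). Bmpr1a was not called without preleukemic_224 (adjusted p = 0.0659), preleukemic_77 or preleukemic_40.

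**Figure D4:**
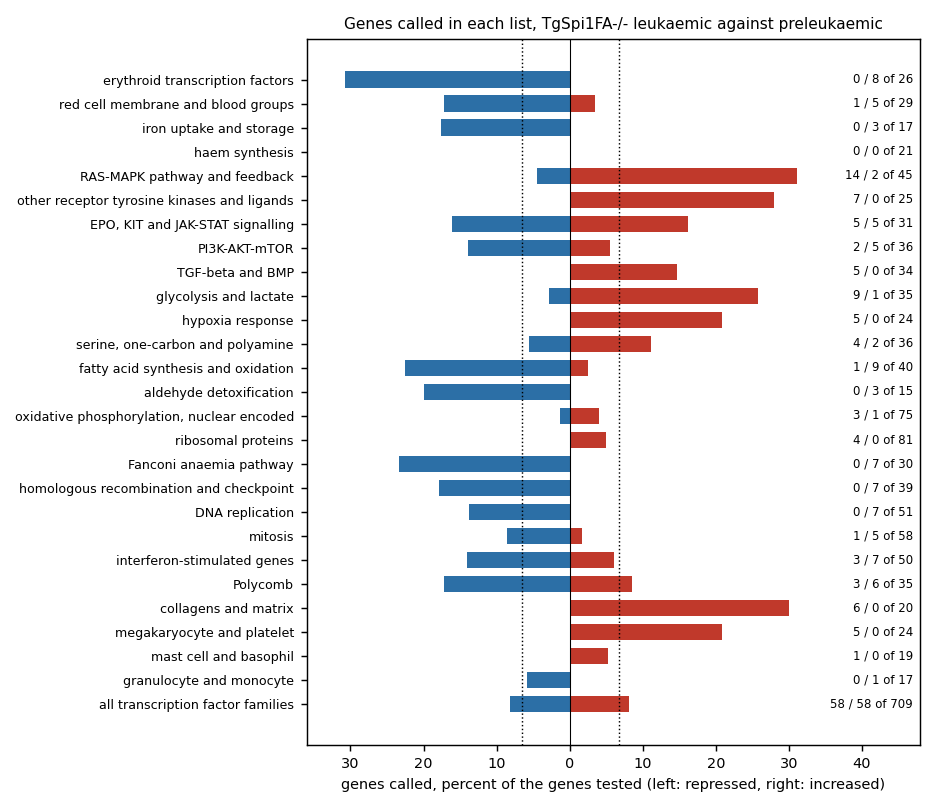
Share of the tested genes of selected lists that were increased (right, red) or repressed (left, blue), with the numbers increased / repressed of those tested at the right. Dotted lines mark the shares over all genes tested, 6.82% increased and 6.49% repressed. These shares are not matched for level, and the increased share was higher among genes low in preleukaemic cells. Among the lists drawn, RAS-MAPK genes (14 of 45) and matrix genes (6 of 20) extend furthest to the right and red cell transcription factors (8 of 26) furthest to the left.

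Of 35 glycolysis genes tested, 9 were increased and 1 was repressed, with a median log2 fold change of 0.73. Pkm, pyruvate kinase, had 1075, 972 and 1331 CPM in leukaemic and 153, 289 and 529 CPM in preleukaemic cells (log2 fold change 1.80, standard error 0.37, edgeR quasi-likelihood test, adjusted p = 0.0188). The glucose transporter gene Slc2a3 had 806, 338 and 412 CPM against 63.3, 44.8 and 133.6 CPM (2.69), and Ldha, lactate dehydrogenase, 1818, 1245 and 1548 CPM against 981, 812.4 and 993 CPM (0.73). In each the groups were apart. Hexokinase genes moved in opposite directions, with Hk2 increased (1.48, a core gene) and Hk1, the form of red cells, repressed (−1.17). Without preleukemic_224 or leukemic_39 only 2 glycolysis genes were increased, and without leukemic_28 there were 4. Pkm and Ldha were not called without preleukemic_224 (adjusted p = 0.0726 and 0.0786) or leukemic_39, nor Slc2a3 without preleukemic_224 (0.0567) or preleukemic_77. Of 24 hypoxia response genes, 5 were increased and 0 repressed (median 0.70), or 2 without preleukemic_224 and 4 without leukemic_28 or leukemic_39. One of them was Arnt, the partner of the hypoxia-inducible factors, with 337, 315 and 345 CPM against 97.3, 116 and 107 CPM (1.64, standard error 0.13, adjusted p = 0.00109). Arnt was a core gene, and it lies in the chromosome 3 window described below.

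Psat1 and Phgdh, genes of serine synthesis, were increased. Psat1 had 1352, 1099 and 975 CPM in leukaemic and 599, 548 and 617 CPM in preleukaemic cells (log2 fold change 0.96, standard error 0.16, edgeR quasi-likelihood test, adjusted p = 0.01) and was a core gene, and Phgdh, the first enzyme of the pathway, had 120, 278 and 291 CPM against 76.7, 79.3 and 84.6 CPM (1.52), with leukemic_26 the lowest. Phgdh was not called without preleukemic_224 (adjusted p = 0.0830). In the opposite direction, Mthfd1, a folate enzyme, fell by 1.48 on the log2 scale and lost the call without preleukemic_224 or leukemic_28. The list of serine, one-carbon and polyamine genes had 4 increased and 2 repressed of 36, or 1 and 1 without leukemic_28 or preleukemic_224 and 2 and 2 without leukemic_39.

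Of 40 fatty acid genes tested, 9 were repressed and 1 was increased (median −0.38), or 6 and 0 without leukemic_39, 2 and 0 without leukemic_28 and 2 and 1 without preleukemic_224. Ehhadh, a peroxisomal oxidation enzyme, had 6.06, 3.02 and 2.21 CPM against 21.0, 23 and 24.9 CPM (log2 fold change −2.61, standard error 0.42, edgeR quasi-likelihood test, adjusted p = 0.00941) and was a core gene. Ucp2, a mitochondrial carrier, had 487, 372 and 120 CPM against 1009, 1199 and 1213 CPM (−1.80), and was not called without preleukemic_224 (adjusted p = 0.0797), leukemic_28, preleukemic_77 or preleukemic_40. The increased gene was Fabp5, a fatty acid binding protein, at 36.8, 29.9 and 57.4 CPM against 0, 0.322 and 0 CPM. Fabp5 was at 0 CPM in TgSpi1FA+/+ cells, and lost the call without leukemic_28 (adjusted p = 0.0659) or leukemic_39. Aldehyde detoxification had 3 repressed genes of 15 (median −0.81), and 0 without leukemic_28, preleukemic_224 or leukemic_39. Aldh2, which clears the acetaldehyde that burdens FANC-deficient cells, had 160, 181 and 88.8 CPM against 442, 344 and 474 CPM, with groups apart, but was called in 0 of the 6 fits with a mouse left out (adjusted p at most 0.105, without leukemic_39). Ribosomal protein genes had 4 increased of 81 (2 without leukemic_28, preleukemic_224 or leukemic_39) and nuclear genes of oxidative phosphorylation 3 increased and 1 repressed of 75 (0 and 0 without leukemic_28 or preleukemic_224, 2 and 0 without leukemic_39). Neither list exceeded the 6.82% increased or 6.49% repressed over all genes tested. Mitochondrially encoded mRNAs summed to 2819 CPM in leukemic_26, 9580 in leukemic_28 and 9555 in leukemic_39 against 12385 to 13870 CPM in preleukaemic cells, and none of the 7 tested was called.

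In the Fanconi anaemia, recombination, end joining and replication lists each called gene was repressed, whereas excision, mismatch and alkylation repair had 3 repressed and 1 increased gene (Smug1) of 38, or 1 and 0 without leukemic_39 or preleukemic_224 and 2 and 0 without leukemic_28. Smug1, a uracil glycosylase gene, was called in 0 of the 6 fits with a mouse left out (edgeR quasi-likelihood test, adjusted p at most 0.107, without preleukemic_224). Of the other genes of the Fanconi anaemia pathway, in which a core complex acts on FANCD2 and FANCI at DNA crosslinks, 7 of 30 were repressed and 0 increased, with a median log2 fold change of −0.33. Brip1, the FANCJ helicase, had 33.4, 26.7 and 25 CPM in leukaemic and 55.8, 58.7 and 64.2 CPM in preleukaemic cells (log2 fold change −1.07, standard error 0.17, edgeR quasi-likelihood test, adjusted p = 0.00866). Fanci had 24.6, 17.8 and 23.4 CPM against 39.1, 58.7 and 61.4 CPM (−1.28), and Brca2, a recombination gene, 35.3, 36.4 and 38.2 CPM against 53.5, 86.8 and 83.7 CPM (−1.03). The groups did not overlap in any of these, and Brip1 was a core gene. Fanci and Brca2 were not called without leukemic_28 or preleukemic_224, and 1 gene of the list was called without leukemic_28, 1 without preleukemic_224 and 3 without leukemic_39.

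Homologous recombination and checkpoint genes had 7 repressed and 0 increased of 39 (Wrn, Rad54l, Brca2, Atr, Nbn, Chek2 and Rad50), end joining 3 and 0 of 19 (1 and 0 without leukemic_28 or preleukemic_224, 2 and 0 without leukemic_39) and DNA replication 7 and 0 of 51. The Werner helicase gene Wrn had 122, 79.4 and 72.7 CPM against 195, 291 and 316 CPM (log2 fold change −1.55, standard error 0.25, edgeR quasi-likelihood test, adjusted p = 0.01). Polq, the polymerase of microhomology-mediated end joining, had 39, 37.8 and 41.3 CPM against 92.0, 115 and 96.4 CPM (−1.36, standard error 0.13, adjusted p = 0.00195). Wrn and Polq were core genes with groups apart. Pola1, DNA polymerase alpha, had 145, 133 and 140 CPM against 229, 238 and 242 CPM (−0.76) and lost the call without leukemic_28 (adjusted p = 0.0598) or preleukemic_224. The recombination list had 2 repressed genes without leukemic_28, 1 without preleukemic_224 and 3 without leukemic_39, and the replication list 0, 0 and 3. Summed over the replication list, levels were 7990 to 9193 CPM in leukaemic and 9874 to 10425 CPM in preleukaemic cells.

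Chromatin regulators changed in both directions. Smarca2, the BRM ATPase of the SWI/SNF complex (ENSMUSG00000024921, chr19:26605050-26778322), had 10.3, 6.72 and 11.8 CPM in leukaemic and 68.7, 58.7 and 90.9 CPM in preleukaemic cells (log2 fold change −2.92, standard error 0.36, edgeR quasi-likelihood test, adjusted p = 0.00514) and was a core gene. Polycomb genes had 3 increased and 6 repressed members of 35. Suz12, a core subunit of PRC2, had 216, 197 and 205 CPM against 356, 352 and 383 CPM (−0.82), and Ezh1, a PRC2 methyltransferase, 10.7, 11.3 and 12.6 CPM against 33.6, 35.5 and 30.2 CPM (−1.52), with groups apart. The increased ones were Rnf2, an H2A ubiquitin ligase (1.04), Pcgf2 (7.19) and Epop, a PRC2-associated gene at 7.34, 53.6 and 60.9 CPM against no count. None of these 5 was called without leukemic_28, and the list had 0 calls there, 1 without preleukemic_224 and 3 without leukemic_39. Among oncofetal RNA regulators, 5 of 11 were increased, and besides Igf2bp1 they included the DNA-binding proteins Arid3a (2.36) and Arid3b (2.77) and the RNA-binding protein Rbm38 (1.57). These 3 had groups apart and were not called without preleukemic_224, leukemic_28 or leukemic_39, while 2 genes of the list were called in each of those fits.

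Of 50 interferon-stimulated genes tested, 7 were repressed and 3 increased, with a median log2 fold change of −0.91. Ifit2 had 1.84, 0.869 and 0.254 CPM in leukaemic and 8.11, 15.8 and 14.5 CPM in preleukaemic cells (log2 fold change −3.69, standard error 0.84, edgeR quasi-likelihood test, adjusted p = 0.0257). The antigen peptide transporter genes Tap1 and Tap2 were repressed as well (−1.51 and −1.23). The 3 increased genes were Ifitm1, Ifitm2 and Ifitm3, which lie together on chromosome 7 and encode membrane proteins that block virus entry. Ifitm2 had 48.4, 39.7 and 55.7 CPM against 31.9, 17.5 and 19.21 CPM (1.07). In all of these the groups were apart. Without leukemic_28 or preleukemic_224 the list had 0 increased and 1 repressed member, and without leukemic_39 it had 1 and 2, and none of Ifit2, Tap1, Tap2 and the Ifitm genes was called without leukemic_28 or preleukemic_224.

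Markers of other lineages were counted to see which cells the cultures could hold. Of 24 megakaryocyte and platelet genes tested, 5 were increased and 0 repressed (Rasgrp2, Cd9, P2rx1, Itga2b and Vwf), with a median log2 fold change of 1.97, or 2 and 4 increased without leukemic_28 and leukemic_39 and 2 without preleukemic_224. Itga2b, the platelet integrin CD41 (ENSMUSG00000034664, chr11:102453297-102470122), had 92.8, 243 and 203 CPM in leukaemic and 20.6, 16.1 and 21.8 CPM in preleukaemic cells (log2 fold change 3.20, standard error 0.38, edgeR quasi-likelihood test, adjusted p = 0.00472), and was a core gene without overlap. Cd9, a tetraspanin gene, had 29.9, 51.3 and 50.3 CPM against 0, 0.175 and 0 CPM, and was not called without leukemic_28 (adjusted p = 0.0615), preleukemic_77, preleukemic_224 or preleukemic_40. By contrast the platelet chemokine gene Pf4 had 69.9, 5.55 and 0.837 CPM against 13.4, 23 and 9.19 CPM, with overlap. The summed level of the list was 1287 to 2038 CPM in leukaemic and 920 to 1529 CPM in preleukaemic cells. Granulocyte and monocyte genes had 0 increased and 1 repressed of 17 tested with Elane, a neutrophil protease gene, at no more than 2 counts in any library, and mast cell and basophil genes 1 and 0 of 19 (1 and 0, and 0 and 0, without leukemic_39), and their sums overlapped between the groups (75.1 to 231 against 151 to 354 CPM, and 1263 to 2318 against 1301 to 1763 CPM).

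Of 7 T and NK cell genes tested, 4 were increased (Thy1, Tcf7, Trbc2 and Lck). In leukaemic cells Thy1 had 14.93, 2.402 and 0 CPM and Tcf7 had 2.987, 68.39 and 38.96 CPM. Trbc2 had 1.425, 1.227 and 0.482 CPM there and Lck 5.234, 3.808 and 4.769 CPM. The 33 genes of the list summed to 61.7 to 277 CPM in leukaemic and 3.95 to 44.6 CPM in preleukaemic cells. The highest sum was that of leukemic_26, where most of it came from members that were not called. Cd3e, a defining T cell gene that was too low to be tested, had at most 1 count in any of the 6 libraries. The list had 0 calls without leukemic_28 or preleukemic_224 and 3 without leukemic_39. Matrix genes had 6 increased and 0 repressed of 20 (median 1.88), or 1 without preleukemic_224 and 2 without leukemic_28 or leukemic_39. Col4a1, a basement membrane collagen gene, had 1.37, 16.6 and 12.0 CPM in leukaemic cells and at most 1 count in preleukaemic libraries, at least 106-fold higher and a core gene, and Lamc1, the laminin gamma 1 gene, had 122, 144 and 101 CPM against 8.73, 1.11 and 1.46 CPM. Lamc1 was not called without preleukemic_224 (adjusted p = 0.0877), leukemic_28, leukemic_39 or preleukemic_40. Sparc, a matrix protein gene, was almost off in leukemic_26 (0.329 CPM) and had 17.6 and 78.2 CPM in leukemic_28 and leukemic_39. The part of other cell types in these differences was not tested.

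Immediate early genes, which respond to growth factors and handling within a short time, had 5 increased and 0 repressed of 20 (Atf3, Fosb, Dusp1, Zfp36 and Btg2), or 2 without leukemic_28 or preleukemic_224 and 3 without leukemic_39. Atf3, a stress factor, had 33.2, 19 and 12.6 CPM in leukaemic and at most 2.59 CPM in preleukaemic cells (log2 fold change 3.60, standard error 0.48, edgeR quasi-likelihood test, adjusted p = 0.00556). Both Atf3 and Btg2 were core genes with groups apart.

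A few core genes were near 0 in TgSpi1FA-/- preleukaemic cells alone, while leukaemic and TgSpi1FA+/+ cells expressed them. Rpsa-ps10, a processed pseudogene of a ribosomal protein whose reads can be shared with its parent gene, had 167, 128 and 129 CPM in leukaemic cells, 0.328, 0.234 and 0.388 CPM in TgSpi1FA-/- preleukaemic cells and 132 to 169 CPM in TgSpi1FA+/+ cells, a range that overlapped the leukaemic one. The smallest adjusted p of all genes was that of Rpsa-ps10 (edgeR quasi-likelihood test, 4.31e-07, log2 fold change 8.79). Ggta1, the alpha-galactosyltransferase (chr2:35400179-35463231), had 75.8, 76.9 and 85.8 CPM in leukaemic and 0.164, 0.0292 and 0.0970 CPM in TgSpi1FA-/- preleukaemic cells, and 5.29 to 39.9 CPM in TgSpi1FA+/+ cells. Mvb12b, a gene of endosomal sorting on the same chromosome (chr2:33729953-33887946), had 51.2, 85.6 and 90.2 CPM against 0.0657, 0.263 and 0.0323 CPM, and 3.62 to 24.3 CPM in TgSpi1FA+/+ cells. For Ggta1 and Mvb12b every leukaemic mouse was above every TgSpi1FA+/+ mouse.

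Chromosome 3 held 98 increased and 34 repressed of its tested genes and chromosome 1 held 83 and 18. Position was examined after these values had been seen, over 9350 genes with a mean of at least 5 CPM in either preleukaemic group, in windows of 25 consecutive genes. For each library the median difference of log2 CPM from the TgSpi1FA-/- preleukaemic mean was taken. A window held a median of 1 increased gene, and 10 of 1779 overlapping windows held 10 or more. The window chosen for the highest minimum over the 3 leukaemic mice lies on chromosome 3 (chr3:95228732-96626171, 1.40 Mb) and held 18 increased genes and 0 repressed ones. The median difference was 1.37, 1.56 and 1.51 in leukaemic and −0.09, 0.01 and 0.10 in preleukaemic cells. The 3 leukaemic mice were alike in this window, which was chosen by their values. The 3 preleukaemic mice centre on 0 because their mean is the reference, and they differed little from each other. The TgSpi1FA+/+ mice had 0.56 (preleukemic_445), 0.51 (preleukemic_479), 0.14 (preleukemic_451) and 0.06 (preleukemic_138). In the second count table of the same leukaemic mice, the medians against the TgSpi1FA+/+ mean were 1.40, 1.56 and 1.29.

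The genes of this window have various functions. Ensa, an inhibitor of a mitotic phosphatase, had 349, 378 and 472 CPM in leukaemic and 106, 130 and 116 CPM in preleukaemic cells (log2 fold change 1.77, standard error 0.14, edgeR quasi-likelihood test, adjusted p = 0.00114). Mcl1, a survival protein of the BCL2 family, had 838, 753 and 615 CPM against 244, 258 and 341 CPM (1.39, standard error 0.21, adjusted p = 0.00836). The histone methyltransferase gene Setdb1 had 406, 636 and 871 CPM against 211, 216 and 186 CPM (1.64). Tars2, a mitochondrial tRNA ligase gene, Bola1, an iron-sulfur cluster gene, Sf3b4, a splicing factor gene, and Anp32e, a histone chaperone gene, had log2 fold changes of 1.80, 2.09, 1.62 and 1.51. Each of these 7 genes and Arnt was a core gene, and in each the groups did not overlap.

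In leukemic_28 and leukemic_39 the raised stretch went on to both sides, and in leukemic_26 it did not. A further stretch of chromosome 3 (chr3:98280435-104220374) was chosen for its high median in leukemic_28. The medians there were −0.07 in leukemic_26, 1.40 in leukemic_28 and 1.54 in leukemic_39, with 9 of 25 genes increased. This stretch holds Nras, with 274 CPM in leukemic_26 against 928 and 1077 CPM in leukemic_28 and leukemic_39, and 142 to 230 CPM in preleukaemic cells. Over this stretch, as in Nras itself, leukemic_26 differed from the other leukaemic mice. By the study's exome data leukemic_26 carries a Kit mutation, and leukemic_28 and leukemic_39 carry an Nras mutation. The part of these mutations in the differences between leukaemic mice was not tested. On chromosome 1, a stretch (chr1:133603871-136177998) was also chosen for a high minimum over the leukaemic mice. There 11 of 25 genes were increased, Btg2 among them. The medians were 0.69, 1.10 and 2.02 in leukaemic cells and −0.45 to 0.13 in preleukaemic cells, so here leukemic_39 was the highest. The value of −0.45 was that of preleukemic_224, which is part of the reference mean and so raises the values of the other mice. In the second count table the medians of this stretch against the TgSpi1FA+/+ mean were lower, at 0.36, 0.76 and 1.79. Other stretches were chosen for an extreme median in 1 mouse. For leukemic_26, chr4:132355923-133887797 had a median of 2.23, against 0.32 and −0.27 in leukemic_28 and leukemic_39. For leukemic_39, chr12:75714249-79296304 had −1.59, against −0.10 and −0.14 in leukemic_26 and leukemic_28. Chromosome 18 as a whole was at −0.66 in preleukaemic mouse preleukemic_77 and between 0.20 and 0.37 in the other 5 TgSpi1FA-/- mice. The low level in preleukemic_77 is part of the reference mean and so raises the values of the other mice. The part of DNA copy number in these stretches was not tested here.

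**Figure D5:**
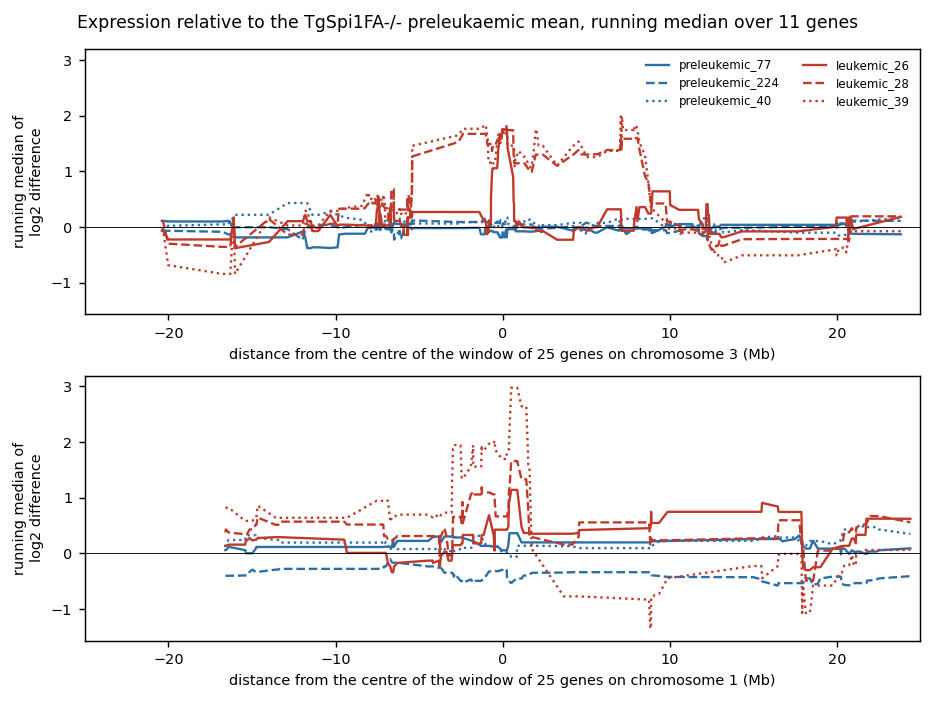
Running median over 11 genes of the log2 difference from the TgSpi1FA-/- preleukaemic mean, against the distance (Mb) from the centre of the leading windows on chromosome 3 (top) and chromosome 1 (bottom), 1 line per mouse. On chromosome 3 all 3 leukaemic mice (red) rise at the centre, where the window medians are 1.37, 1.56 and 1.51, and leukemic_28 and leukemic_39 stay raised to both sides. The preleukaemic mice (blue), whose mean is the reference, are near 0 at the centre on chromosome 3. Further out on chromosome 3 they reach −0.38 (preleukemic_77) and 0.43 (preleukemic_40). On chromosome 1, preleukemic_224 is at −0.30 at the centre and reaches −0.58 further out, and preleukemic_40 reaches 0.50.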

How the data were processed

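The authors deposited raw counts per Ensembl gene, without normalization. Per the labels, poly(A) RNA libraries were stranded, and the submitters' processing notes name bcl2fastq 2.17.1.14, STAR 2.5.3a, HTSeq 0.6.1p1 and mm10 (GRCm38). Of 26029 genes, 13393 passed filterByExpr. The 10 libraries of model 1 were fitted in 1 model of 3 groups with edgeR 4.0.16 (TMM, quasi-likelihood test) in R 4.3.3, with Benjamini-Hochberg adjustment over all genes tested. CPM use the TMM library size. Standard errors were taken from the quasi-likelihood test and include the spread between mice. Floors cover counting error only: where every library of a group held 3 counts or fewer, the fold is a bound against 3 counts per library. The second table, with counts deposited for 7 of these mice, was used only beside the chromosome windows, and the tables of model 2 were not used. The test was checked on simulated counts.

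Genes were named by size, abundance, adjusted p, membership of the 291 core genes and, for each list, up to 5 calls in each direction, besides fixed markers. The rule did not select Ikzf1, Gfi1b, Tal1, Hba-x, Tfrc, Alas2, Dusp7, Spred1, Map2k1, Jak2, Hk2, Pf4, Lyz2, Cpa3, Cd3e, Elane, Cux1, Rara, Rad50, Nr6a1, Nfil3 and Nras, which were chosen after their values were seen. Some genes that the rule selects are not reported here. The comparison, lists and rule were set with earlier results of these data known. The alternatives were DESeq2 1.42.0 (size factors or Wald test), other filters and thresholds, robust estimation, only the compared groups and leaving out each mouse. Gene positions are from GENCODE (GRCm38), promoters from RefSeq (GRCm38.p6).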

Additional observations from a re-analysis of the deposited data

Results flagged for a closer look

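Among the 20 chromosomes, 1 group of 4 mice held a library far from the others. The median log2 difference of chromosome 13 from the TgSpi1FA-/- preleukaemic mean was −0.78 in the TgSpi1FA+/+ preleukaemic mouse preleukemic_451, against −0.09 to −0.04 in the other 3 mice of the group. Chance flags about 1 in 20 groups, and the groups of 3 leukaemic and 3 preleukaemic TgSpi1FA-/- mice were too small for this rule.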

How the results depend on the processing

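The count of 1782 genes rose to 3070 with DESeq2's Wald test (1873 increased) and fell to 510 when the fold change was tested against 1.5 (313 increased, 197 repressed). A fit of only the compared groups called 1205 genes, 714 increased and 491 repressed. Without preleukemic_445 the count was 1209 and without preleukemic_479 it was 1235. Without both of these nearly alike TgSpi1FA+/+ libraries, an alternative chosen after seeing the data, 759 genes were called (399 increased, 360 repressed). With 1 mouse left out, the count was 414 to 2319, with 194 to 1241 increased and 183 to 1078 repressed. The share of increased genes among the calls was 51.23% and rose to 61.01% with the Wald test, 61.37% against a fold change of 1.5 and 59.25% in the compared groups, and fell to 43.43% without preleukemic_77. With the Wald test and without a filter the median log2 fold change of all genes was 0.14 and 0.12.

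Of the 150 called genes named in the text, none changed direction under any alternative, and 58 kept the call without each of the 6 mice. The call was lost for 86 without preleukemic_224 and for 80 without leukemic_28, with 57 lost in the fit without preleukemic_40, 57 in that without leukemic_39, 54 in that without preleukemic_77 and 19 in that without leukemic_26. With all mice kept, 77 lost it against a fold change of 1.5 and 39 in the fit of only the compared groups. Without both preleukemic_445 and preleukemic_479, 59 lost it. Among genes not called, the sign of the log2 fold change turned for Cpa3 (−0.72 to 3.39 with 1 mouse left out), Pf4 (−2.24 to 1.34), Fanca (−0.47 to 0.48), Hba-a1 (−0.77 to 0.13) and Tfrc (−0.45 to 0.0050). No paired analysis was possible because the groups share no replicate number. Depth limits genes near the floor of 3 counts, whose fold changes are bounds.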

Other observations

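Of 30 genes of the G1-S transition and E2F targets, 5 were repressed (Rbl2, Cdkn2c, Rb1, E2f8 and Rbl1) and 3 increased (E2f5, Skp2 and Ccnd3), and the median log2 fold change was 0.02. The 3 genes of the retinoblastoma family are thus all among the repressed ones. Rbl2, which encodes p130, had 18, 10.6 and 9.49 CPM in leukaemic and 72.6, 108 and 71.6 CPM in preleukaemic cells (log2 fold change −2.73, standard error 0.40, edgeR quasi-likelihood test, adjusted p = 0.00769). It was a core gene without overlap between the groups. Rb1 had 84.5, 62.5 and 57.6 CPM against 177, 210 and 144 CPM (−1.38) and Rbl1 91, 78 and 90.1 CPM against 121, 149 and 143 CPM (−0.67). Skp2, the ubiquitin ligase subunit that removes a cell cycle inhibitor, had 101 to 151 CPM against 46.2 to 67 CPM. The groups did not overlap in any of the 3, but none of them was called without leukemic_28 or preleukemic_224, where the list held 1 repressed gene and 1 or 0 increased genes, and it held 1 and 1 without leukemic_39.

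Genes of cell death moved in both directions. Bbc3, the p53 target PUMA, had 29.5, 29.8 and 40.9 CPM in leukaemic and 17.6, 16.5 and 16.4 CPM in preleukaemic cells (log2 fold change 0.99, standard error 0.19, edgeR quasi-likelihood test, adjusted p = 0.0165), and Bak1, a pore-forming member of the BCL2 family, had 79, 52.1 and 54 CPM against 142, 164 and 209 CPM (−1.48). Both had groups apart, and each lost the call without 1 mouse, Bbc3 without preleukemic_224 (adjusted p = 0.0575) and Bak1 without leukemic_28 (0.0529). Among p53 targets, 4 of 33 were increased and 3 repressed, or 1 and 2 without preleukemic_224, 2 and 1 without leukemic_28 and 3 and 3 without leukemic_39. The subunits of glutathione synthesis Gclc and Gclm were repressed together (−1.32 and −1.22), Gclc as a core gene, at 85.7, 91.9 and 74.1 CPM against 242, 242 and 143 CPM. Smarcc2, a scaffold of the SWI/SNF complex, had 114, 103 and 96.5 CPM against 192, 256 and 248 CPM (−1.15, adjusted p = 0.00486) and was a core gene.

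Nucleolar and growth genes rose in a few members. Ncl, nucleolin, had 3502, 4709 and 4954 CPM in leukaemic and 2666, 2700 and 2743 CPM in preleukaemic cells (log2 fold change 0.70), with leukemic_26 the lowest of the leukaemic mice, and Npm1, nucleophosmin, 1882, 1495 and 1633 CPM against 1109, 1019 and 1012 CPM (0.67). Npm1 was a core gene, and Ncl was not called without leukemic_28 or preleukemic_224 (edgeR quasi-likelihood test, adjusted p at most 0.0609). Of 57 ribosome biogenesis genes, 4 were increased and 0 repressed, or 1 increased without preleukemic_224, 2 without leukemic_28 and 4 without leukemic_39. The count of 4 is near the 6.82% increased over all genes tested. The MYC network list, which includes Ncl, Npm1 and Ldha, summed to 11219 to 12490 CPM in leukaemic and 8703 to 9424 CPM in preleukaemic cells. Its median log2 fold change was 0.03, with 14 genes higher and 13 lower. In this list 4 of 27 genes were increased and 2 repressed. The counts were 1 and 0 without preleukemic_224, 2 and 0 without leukemic_28 and 3 and 1 without leukemic_39.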
